A study of Mus musculus with 24 samples.

Results

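The 2470 loci described here are transcripts that the authors' own assembly added to the mouse annotation. They were chosen by name alone, as the entries whose identifier begins with XLO, and make up 2470 of 56895 usable entries in the deposited tables. The data are RNA-seq libraries from retroperitoneal white adipose tissue of 24 C57BL/6J mice, with 3 mice in each of 8 groups. The mothers had received for 8 weeks before mating a diet whose vitamin D3 content was 1.0 IU/g (CTRL) or 0.0 IU/g (VDD), and all mothers were returned to the control diet after birth. The offspring of either sex were given a low fat diet (LF, AIN-93M) or a high fat diet (HF, 45% of energy from fat) from 6 weeks of age for 8 weeks. The groups are thus CTRL LF, CTRL HF, VDD LF and VDD HF, in males and in females. The labels do not give the litter, so mice of a group may share a mother.

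By the study's methods, Cufflinks was run with a GENCODE annotation. Such an assembler joins aligned reads into transcripts, of known genes or not, and Cuffmerge then sets them against the annotation. Those that lie between all annotated genes are classed as unknown and intergenic, and such loci often turn out to be long noncoding RNAs, unannotated ends of neighbouring genes, transcribed enhancers or transcribed repeats. Mouse annotation of coding genes is far more complete than that of noncoding genes, and noncoding transcripts tend to be less abundant and more restricted to 1 tissue or sex. The tables give each locus a number but no position, strand or exon, so no sequence is shown and no locus can be assigned here to one of these kinds.

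The libraries held between 13346779 and 18484346 reads on counted entries. A normalized read count below is a count divided by a size factor, on a scale common to the 24 libraries unless a table of 6 libraries is named. Markers of adipocytes, such as Adipoq and Plin1, summed to between 672949 and 1491710 normalized reads and were present in every library. A few libraries stood apart in markers of other tissues. Those of skeletal muscle summed to 1287760 in mouse 2310 (VDD LF male) against at most 421990 elsewhere, those of kidney to 11753 in mouse 2303 (VDD LF female) against at most 670, those of the brown adipocyte to 33596 in mouse 2121 (VDD HF female) against at most 11745, and those of the adrenal gland to 32677 in mouse 2292 (CTRL HF female) against at most 18942. Mouse 2292 was also the highest for markers of ovary and uterus, at 4224 against at most 2308 elsewhere. The adrenal sums were at most 324 in males and had a median of 1041 in females. Which of these tissues the reads came from was not tested. Muscle sums had a median of 1137 with CTRL mothers (149 to 80423) and of 24839 with VDD mothers (206 to 1287760). In a bulk sample, fewer cells of a type and less RNA per cell cannot be told apart. In addition, 6 libraries carry the word renal in their name, 1 in each of the 4 male groups, 1 of CTRL LF females and 1 of VDD LF females, and the sources used here do not say what it marks. With that word as a term in the fit, 46 of 842 tested added loci (5.46%) had an unadjusted p under 0.05 for it, against 818 of 16364 entries of all kinds (5.0%).

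Most added loci were scarce, and a few were among the most abundant entries. No read was counted in any library for 3 of the 2470 loci. A read was found in 1 library for 9 loci, in 2 to 11 libraries for 200, in 12 to 23 for 973 and in all 24 for 1285. The median locus had a mean of 6.35 normalized reads. The mean was under 1 for 72 loci, from 1 to 10 for 1556, from 10 to 100 for 754, from 100 to 1000 for 74, and at least 1000 for 14. A mean of at least 10, the level required for the tests across 24 libraries, was reached by 842 loci, or 34.1%. By the gene classes of GENCODE M21, matched by name, it was reached by 9.30% of 12572 annotated long noncoding genes and by 63.3% of 21899 protein coding genes. In the same order, a read was present in all 24 libraries for 52.0%, 12.7% and 62.5%. The assembly was made from these libraries, so presence in them is partly what the loci were admitted by.

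Between 725 and 1092 added loci reached 10 normalized reads in a library. The group mean was at least 10 for 1410 loci in some group, for 460 in all 8 groups and for 295 in 1 group only. By group this count ran from 760 in CTRL HF females (30.8% of the added loci) to 973 in VDD LF males (39.4%), and VDD LF males also had the most loci at that level in no other group, 83. The 3 VDD LF males had 1092, 986 and 782 loci at 10 reads or more, so 1 group spanned most of the range over all libraries. The lowest of these was mouse 2310, the one with the high muscle markers.

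Added loci received between 0.835% and 4.08% of a library's reads, and nearly all of that range came from 10 loci. The share had a median of 1.11% in the 12 males and 2.19% in the 12 females, of 1.54% under LF and 1.73% under HF, and of 1.19% with CTRL and 1.81% with VDD mothers. The ranges overlapped in all of these. Within CTRL HF males alone the 3 values were 0.835%, 0.840% and 3.30%, and within CTRL LF females 0.963%, 1.05% and 3.04%. The 10 loci with the highest mean held 82.1% of all reads on added loci, the first of them 32.8%, and the first 100 held 90.8%. Without the 10, the share lay between 0.223% and 0.420%.

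**Figure D1:**
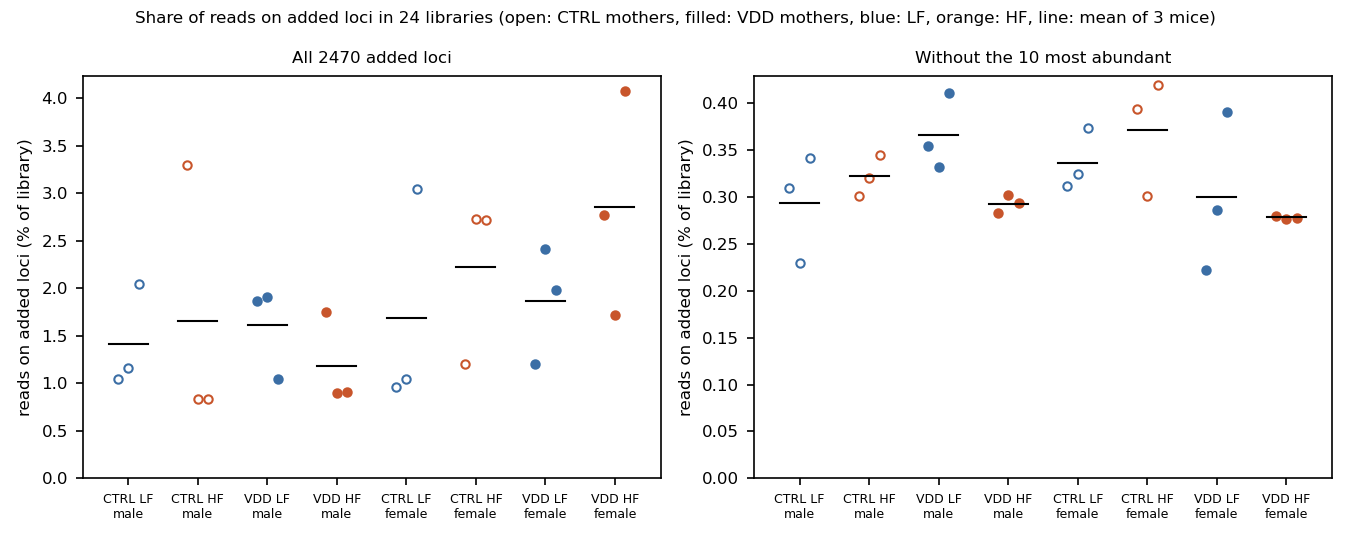
Share of each library's reads that fell on added loci (y axis, % of the library) by group (x axis), for all 2470 loci and without the 10 most abundant. Each point is 1 mouse and each line the mean of 3, and single mice of several groups stood far above the others until the 10 loci were taken out.

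The most abundant locus, XLOC_028466, had a mean of 97420 normalized reads, on a scale that takes no account of length. Its level ran from 20124 in mouse 2131 (CTRL HF male) to 293672 in mouse 2121 (VDD HF female). In males the lowest, median and highest values were 20124, 46761 and 217223, and in females 29775, 116613 and 293672, so both sexes covered much of the same range. The female minus male difference was 0.89 (log2, SE 0.44, limma adjusted p = 0.163), the HF minus LF difference 0.11 (SE 0.44, adjusted p = 0.877) and the VDD minus CTRL difference 0.53 (SE 0.44, adjusted p = 0.466).

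The other loci of the 10 were XLOC_037668 (mean 42256), XLOC_022841 (26063), XLOC_008652 (23595), XLOC_045654 (16759), XLOC_039621 (11602), XLOC_002697 (9287), XLOC_049356 (6791), XLOC_020817 (6105) and XLOC_017466 (3501). XLOC_028466 and 6 of these rose and fell together from library to library. Pearson's r of log2 levels with XLOC_028466 over the 24 libraries was 0.994 for XLOC_002697 and XLOC_039621, 0.990 for XLOC_049356 and XLOC_022841, 0.989 for XLOC_017466 and 0.967 for XLOC_037668. XLOC_045654 had an r of 0.871, while XLOC_008652 and XLOC_020817 had -0.33 and -0.15. With XLOC_028466 itself, 24 of the 842 loci followed it at an r above 0.9 and together held 68.0% of all reads on added loci, whereas 13 of 15522 annotated entries did so. All points of these correlations share library depth, scaling and RNA preparation.

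The annotated entries most like the first of these loci were few in kind. XLOC_028466 was closest to Lars2, the mitochondrial leucyl-tRNA synthetase (r = 0.995), the small RNA gene Gm23935 (0.994) and the microRNA gene Mir6236 (0.993). XLOC_037668 was closest to Gm42418 (r = 0.9997), a long noncoding entry annotated over a ribosomal RNA repeat. XLOC_022841 was closest to Lars2 (0.990), and XLOC_045654 to Mir6236 (0.887). The part of ribosomal RNA in these levels was not tested. XLOC_008652 was instead closest to 3 coding genes, Lrrc58 (0.939), Net1 (0.933) and Maco1 (0.933).

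**Figure D2:**
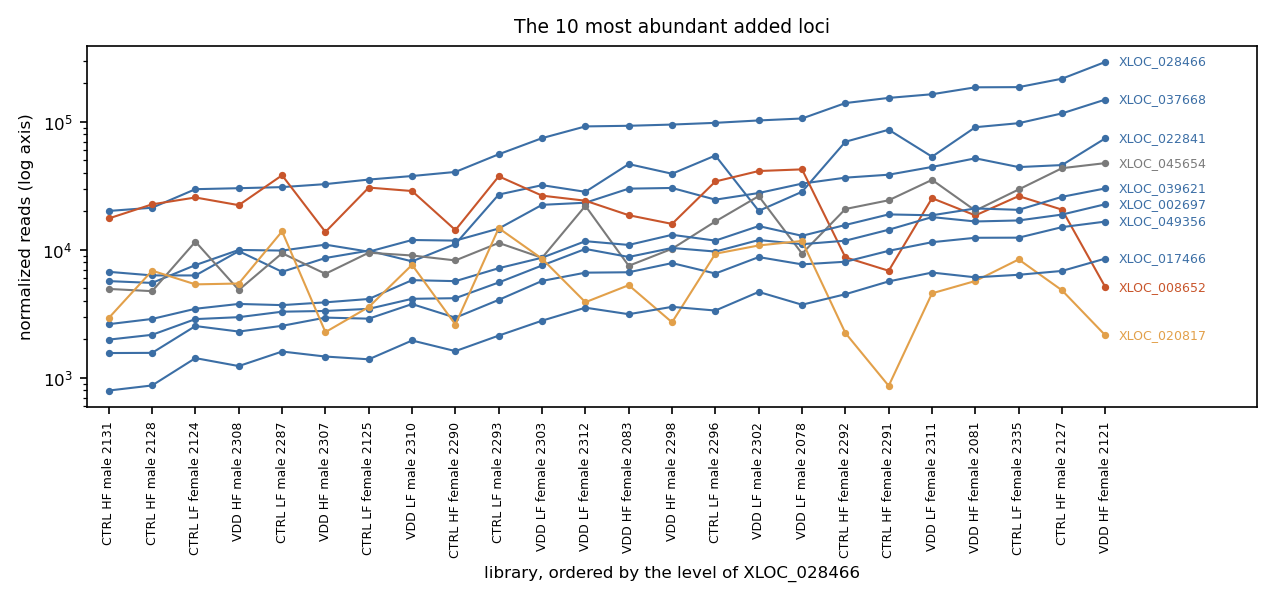
Normalized reads (y axis, log axis) of the 10 most abundant added loci in 24 libraries, ordered along the x axis by the level of XLOC_028466. The 7 blue lines climb together, XLOC_045654 (grey) follows loosely, and XLOC_008652 and XLOC_020817 (orange and yellow) do not.

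The offspring diet was the factor with which most added loci moved. Over the 24 libraries, 121 of the 842 tested loci were called for HF minus LF, with limma, at a p under 0.01 after Benjamini-Hochberg adjustment and a change of more than 1.5-fold up or to under 0.66-fold. Of these, 40 were higher under HF, 4.75% of tested loci, where 6.02% of all 16364 tested entries were called higher. The other 81 were lower under HF, 9.62% of tested loci, where 3.73% of all entries were called lower. Called loci thus lay below the background on the side of the increases and above it on the side of the decreases. The median HF minus LF difference of the 842 loci was -0.15 (log2), against 0.01 over all entries. With scaling to total reads, the median over all entries moved to 0.17 and that of the added loci to 0.01, and 57 added loci were called higher and 49 lower, 53.8% higher against 33.1% in the scaling used here. Of all called entries 83.5% were higher in that scaling and 61.7% in the one used here. The shares of tested loci there were 6.69% higher, against 10.1% of all entries, and 5.75% lower, against 2.00%. The 119 of the 121 loci still tested kept their direction. Without the 6 libraries named renal, 38 loci were called, 19 higher and 19 lower, each 2.29% of tested loci, where 2.64% of all entries were called higher and 2.12% lower. The excess of decreases over the background was thus nearly gone among the calls of that fit of fewer libraries, and the 118 of the 121 still tested kept their direction. The median of the added loci there was -0.12, against 0.002 over all entries. With the word renal as a term over all 24 libraries, 43 loci were called higher and 78 lower. These were 5.11% and 9.26% of tested loci, against 6.06% and 3.92% of all entries.

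Annotated long noncoding genes showed a similar split, with 4.70% of 1169 called higher and 8.38% lower, and protein coding genes the opposite one, with 6.32% of 13872 higher and 2.98% lower. Among entries with a mean of 10 to 100 normalized reads only, 4.77% of 754 added loci were higher and 9.15% lower, against 4.69% and 7.14% of 980 long noncoding genes and 10.6% and 2.33% of 3438 coding genes. The difference between these classes was not tested. The direction held in nearly every pair of groups, for 120 of the 121 loci in CTRL males, 121 in VDD males, 120 in CTRL females and 114 in VDD females, and for 112 in all 4. These pairs are the same libraries that chose the loci. The median difference of the 81 lower loci was -0.98 in CTRL males, -1.59 in VDD males, -1.68 in CTRL females and -0.79 in VDD females. That of the 40 higher loci was 1.27, 1.76, 1.27 and 0.61 in the same order.

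**Figure D3:**
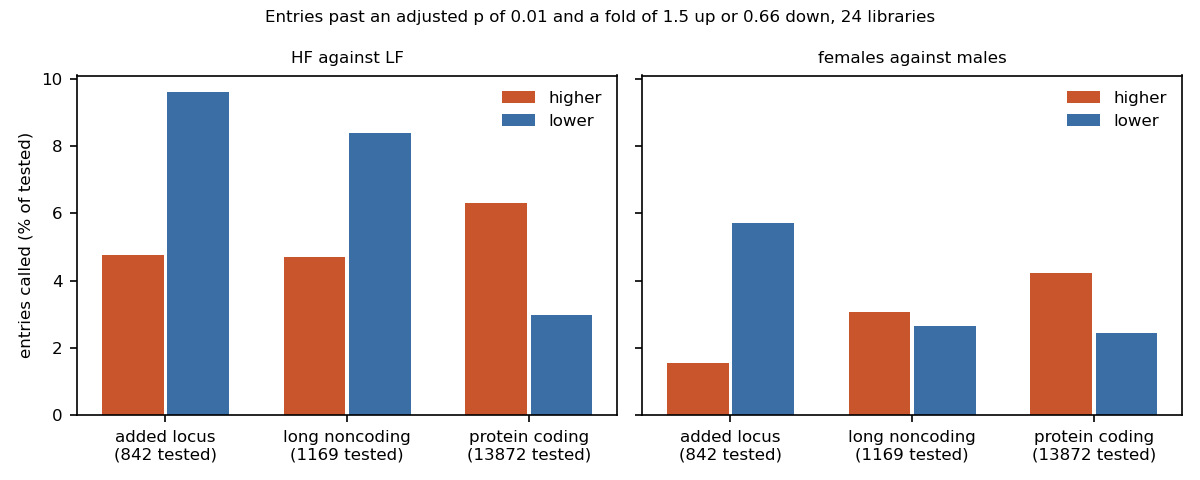
Percentage of tested entries (y axis) called higher or lower under HF against LF, and in females against males, for added loci, annotated long noncoding genes and protein coding genes (x axis). Added loci were called lower more often than higher in both comparisons, 9.62% against 4.75% and 5.70% against 1.54%, though for diet the order turned with scaling to total reads (49 lower, 57 higher). In that scaling 5.75% of added loci were lower, against 2.00% of all entries, and 6.69% higher, against 10.1%.

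A locus whose 12 HF libraries all lay below its 12 LF libraries was found 6 times among the 842 (0.713%), where the share over all entries was 0.171%. None had all HF libraries above all LF libraries, with 0.0306% of all entries doing so. The 6 were XLOC_008652, XLOC_010686, XLOC_025395, XLOC_033553, XLOC_036080 and XLOC_048963, of which the last 3 were picked out after their values were seen. XLOC_008652 is the fourth most abundant added locus. Its lowest, median and highest normalized reads were 24202, 29724 and 42519 under LF and 5110, 16767 and 22666 under HF. The group means were 36648 ± 2150 (SD, n = 3) and 20286 ± 2551 in CTRL males on LF and HF, 37531 ± 7587 and 17358 ± 4442 in VDD males, 27530 ± 2720 and 9959 ± 3851 in CTRL females, and 25342 ± 1149 and 14109 ± 7793 in VDD females. The difference was -1.14 (log2, SE 0.18, adjusted p = 0.000192).

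XLOC_025395 had 1384, 1994 and 4569 normalized reads under LF and 281, 1097 and 1376 under HF, where the highest HF value lay just under the lowest LF value. It fell by 1.46 (log2, SE 0.17, adjusted p = 1.7e-05) and was also lower in females than in males (-0.87, SE 0.17, adjusted p = 0.00179). XLOC_020817, another of the 10 most abundant loci, had 3574, 8468 and 14772 reads under LF and 866, 2825 and 6876 under HF, so its ranges overlapped, and it fell by 1.28 (SE 0.24, adjusted p = 0.000594). For correlations, each list of markers was taken as the mean log2 level of its genes. Among 13 tissue and cell lists, XLOC_008652 and XLOC_020817 had their highest r with the adipocyte list, 0.657 and 0.693. The summed adipocyte markers had medians of 1005210 under LF and 871624 under HF. Their part in the difference was not tested.

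The 5 largest decreases under HF were in scarcer loci. XLOC_010686 had 6.41, 21.4 and 37.5 normalized reads under LF and 0, 1.55 and 4.92 under HF, and fell by 3.02 (log2, SE 0.31, adjusted p = 5.94e-06). It was most like Stt3b, a subunit of the oligosaccharyltransferase (r = 0.939), and Acot4, a peroxisomal acyl-CoA thioesterase (0.921). XLOC_019210 had 17.5, 41.7 and 128 reads under LF and 0.896, 2.53 and 57.1 under HF (-2.86, SE 0.46, adjusted p = 0.000187), and was most like Dpyd, which starts the breakdown of pyrimidines (0.911), and again Acot4 (0.910). XLOC_032925 had 3.22, 24.9 and 61.6 under LF and 0, 0.971 and 40.3 under HF (-2.81, SE 0.52, adjusted p = 0.000594). In both of these loci some HF mice reached the LF range, mouse 2083 (VDD HF female) highest, while the HF medians were below every LF value.

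XLOC_023310 and XLOC_023311, which carry consecutive numbers, were the other 2. XLOC_023310 had 16.1, 40.8 and 110 normalized reads under LF and 0.851, 3.59 and 33.5 under HF (-2.67, SE 0.31, adjusted p = 1.23e-05). XLOC_023311 had 20.1, 54.7 and 140 under LF and 3.32, 7.59 and 64.9 under HF (-2.44, SE 0.30, adjusted p = 2.07e-05). Their log2 levels had an r of 0.959 over the 24 libraries, and whether they are parts of 1 transcript was not tested.

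Of the loci that rose, the first 5 were all near 0 to 20 normalized reads in most LF mice. XLOC_021291 had 0, 4.79 and 18.2 reads under LF and 7.87, 83.9 and 216 under HF. Its HF group means were 104 ± 34.7 in CTRL males, 165 ± 46.3 in VDD males, 77.8 ± 63.1 in CTRL females and 15.9 ± 9.84 in VDD females (SD, n = 3 each). The difference was 3.59 (log2, SE 0.43, adjusted p = 1.49e-05). It was most like Ahnak, a large scaffold protein (r = 0.945), and Col18a1, a basement membrane collagen (0.937). Its r with the macrophage list was 0.754, and the summed macrophage markers had medians of 7366 under LF and 15891 under HF. Their part in the rise was not tested.

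XLOC_007838 had 0, 1.72 and 6.96 normalized reads under LF and 2.07, 35.0 and 51.2 under HF (3.48, SE 0.43, adjusted p = 2e-05), and was most like Rap1gap2, which switches off the GTPase Rap (r = 0.924), and Adamts5, which cleaves aggrecan (0.871). XLOC_023712 had 0, 2.75 and 6.28 under LF and 1.97, 47.7 and 201 under HF (3.40, SE 0.46, adjusted p = 4.53e-05). The low HF values of both came from VDD females. XLOC_025259 had 2.35, 6.74 and 47.8 under LF and 24.6, 87.4 and 206 under HF (3.24, SE 0.40, adjusted p = 1.97e-05). XLOC_025261, whose number is higher by 2, had 0.912, 3.79 and 21.4 under LF and 2.95, 29.0 and 59.1 under HF (2.47, SE 0.36, adjusted p = 9.52e-05).

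**Figure D4:**
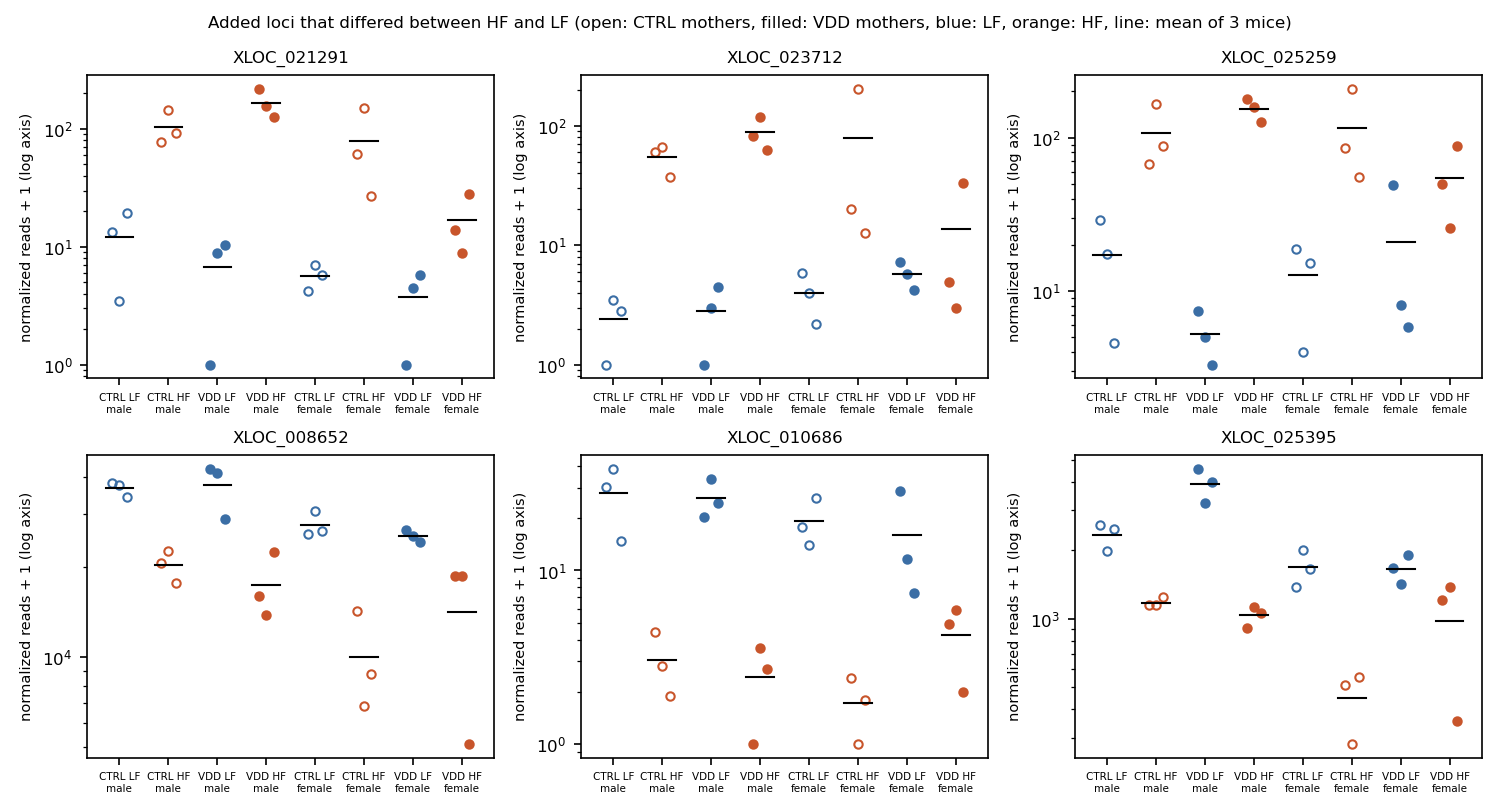
Normalized reads + 1 (y axis, log axis) of 3 loci that rose and 3 that fell under HF, by group (x axis), with 1 point per mouse and a line at the mean of 3. In the lower panels every orange HF point lies below every blue LF point, and in the upper panels the VDD HF females come closest to the LF mice.

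Within the deposited tables, where 3 mice are set against 3, no added locus was called in any of the 8 comparisons by limma with a trend, and none by limma-voom. Hardly any entry of another kind was called by limma with a trend either. With a different test, the paper lists differentially expressed genes for each of these comparisons. The lack of calls therefore holds for the tests used here and does not show that the loci were unchanged. Whether the other test would call added loci was not tested. For CTRL LF vs. CTRL HF males, 136 of 825 tested loci (16.5%) had an unadjusted p under 0.05, where the share over all entries was 18.8%, and 177 (21.5%) had groups that did not overlap, against 24.7%. The share of all entries called was 0.0578%. For VDD LF vs. VDD HF males it was 217 of 924 (23.5%, against 25.9%), with 262 not overlapping (28.4%, against 33.4%) and 0.0752% of all entries called. For CTRL LF vs. CTRL HF females it was 249 of 937 (26.6%, against 28.8%), with 327 not overlapping (34.9%, against 35.2%) and 0% of all entries called. For VDD LF vs. VDD HF females it was 45 of 788 (5.71%, against 5.05%), with 105 not overlapping (13.3%, against 11.6%) and 0% called. The added loci thus stayed near the background in all 4 diet comparisons. Of the loci with an unadjusted p under 0.05, those lower under HF were 77 of 136 in CTRL males (56.6%, against 46.5% of all such entries), 122 of 217 in VDD males (56.2%, against 47.2%), 193 of 249 in CTRL females (77.5%, against 50.04%) and 35 of 45 in VDD females (77.8%, against 50.4%). The difference between these shares was not tested.

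The loci with the smallest p in these tables were not called, and their values are on each table's own scale. In CTRL males XLOC_023712 had 0, 1.8 and 2.4 normalized reads under LF and 34.5, 57.1 and 63.2 under HF (4.59, SE 0.56, adjusted p = 0.0124). There XLOC_049210 had 28.2, 30.6 and 35.4 under LF and 2.6, 3.2 and 3.5 under HF (-2.98, SE 0.39, adjusted p = 0.013), and over the 24 libraries its r with the brown adipocyte markers was 0.834. In VDD males XLOC_025259 had 2.3, 4.0 and 6.4 under LF and 123.9, 156.5 and 176.4 under HF (4.94, SE 0.39, adjusted p = 0.0103). Groups did not overlap in any of these.

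In the same table of VDD males, XLOC_025395 had 3212, 3905 and 4545 under LF and 907, 1054 and 1118 under HF (-1.91, SE 0.17, adjusted p = 0.0105). In CTRL females XLOC_023857 had 75.6, 98.2 and 128.0 under LF and 8.2, 9.1 and 16.1 under HF (-3.09, SE 0.34, adjusted p = 0.0176), and XLOC_007838 had 0, 0 and 2.7 under LF and 38.2, 38.3 and 41.8 under HF (4.71, SE 0.59, adjusted p = 0.0176). In VDD females XLOC_049866 had 158.0, 204.2 and 220.2 under LF and 28.4, 52.9 and 62.6 under HF (-2.05, SE 0.34, adjusted p = 0.837), and XLOC_035810 had 77.2, 143.2 and 187.9 under LF and 14.7, 33.1 and 33.7 under HF (-2.28, SE 0.46, adjusted p = 0.837). XLOC_049866 had an r of 0.839 with markers of the mesothelium, the lining of the abdominal fat depots.

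Hardly any added locus was called for the maternal diet. Over the 24 libraries, 1 of 842 loci was called higher in offspring of VDD mothers (0.119%, with 0.177% of all entries), and none was called lower (0.104% of all entries). No added locus, and 0% of all entries, had 12 VDD libraries all above or all below the 12 CTRL libraries. The called locus, XLOC_010710, had a lowest, median and highest level of 5.49, 36.6 and 179 normalized reads with CTRL and of 35.1, 73.8 and 138 with VDD mothers (1.07, SE 0.20, adjusted p = 0.00925). The ranges overlapped widely, and the locus was also lower under HF (-1.40, SE 0.20, adjusted p = 6.3e-05) and in females (-0.98, SE 0.20, adjusted p = 0.00167). The muscle markers, given above, had a higher median with VDD mothers. With them as a covariate, no added locus and 0% of all entries were called for the maternal diet. Their part in the maternal comparison was not tested further.

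In CTRL HF females XLOC_010710 stood at 5.5, 6.7 and 10.8 normalized reads, below every other library, and in VDD HF females at 35.1, 50.3 and 111.2. In CTRL LF and VDD LF females it stood at 36.2, 36.9 and 50.2 and at 69.1, 78.5 and 114.1. In males, where CTRL and VDD values overlapped under either diet, the means were 122 ± 49.4 and 117 ± 27.4 under LF and 40.6 ± 19.98 and 51.3 ± 3.76 under HF (SD, n = 3). The maternal difference was larger in females than in males by 1.73 (SE 0.39), with an adjusted p of 0.712. The call was kept in 7 of the 24 fits that left out 1 library (mouse 2293, 2127, 2128, 2310, 2312, 2081 or 2121) and lost without any other mouse, with adjusted p from 0.00491 to 0.0244 and differences from 0.95 to 1.16. It was also lost in 8 of 10 other settings. Its closest entries were Acer2, an alkaline ceramidase (r = 0.894), and Pla2g12a, a secreted phospholipase (0.864).

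In the 4 tables on the maternal diet no added locus and 0% of all entries were called. This too holds for the test used here, as the paper lists differentially expressed genes for these comparisons with another test. An unadjusted p under 0.05 was found for 52 of 814 loci (6.39%, against 6.79% of all entries) in CTRL LF vs. VDD LF males, for 48 of 904 (5.31%, against 5.31%) in CTRL HF vs. VDD HF males, for 71 of 873 (8.13%, against 12%) in CTRL LF vs. VDD LF females and for 92 of 835 (11.02%, against 16.7%) in CTRL HF vs. VDD HF females. Groups did not overlap for 89 loci (10.9%, against 13.4%), 104 (11.5%, against 10.3%), 132 (15.1%, against 18.2%) and 147 (17.6%, against 22.9%) in the same order. In females the added loci thus lay under the background on both measures.

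The loci with the smallest p were again not called. In LF males XLOC_001194 had 20.1, 26.7 and 29.2 normalized reads with CTRL and 3.5, 4.2 and 6.2 with VDD mothers (-2.24, SE 0.42, adjusted p = 0.575). There XLOC_047290 had 1.0, 2.2 and 6.5 with CTRL and 16.8, 31.1 and 53.2 with VDD mothers (3.11, SE 0.67, adjusted p = 0.575). In HF males XLOC_013577 had 299.3, 325.6 and 363.7 with CTRL and 182.3, 188.1 and 198.5 with VDD mothers (-0.79, SE 0.15, adjusted p = 0.94). In each, the 3 values of 1 group lay wholly apart from those of the other.

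XLOC_051836, also in HF males, had 6.1, 10.8 and 12.5 with CTRL and 29.2, 39.2 and 40.4 with VDD mothers (1.82, SE 0.36, adjusted p = 0.94). In LF females XLOC_028156 had 198.5, 255.4 and 274.3 with CTRL and 88.8, 88.9 and 156.2 with VDD mothers (-1.16, SE 0.26), and XLOC_054063 had 104.9, 126.8 and 147.1 against 43.9, 58.0 and 76.9 (-1.09, SE 0.26), both with an adjusted p of 0.391. In HF females XLOC_023042 had 259.8, 397.2 and 435.4 with CTRL and 97.7, 115.5 and 125.9 with VDD mothers (-1.65, SE 0.24, adjusted p = 0.131), and its r with the mesothelium markers over 24 libraries was 0.807. XLOC_047848 had 21.3, 22.5 and 28.6 against 62.4, 82.1 and 96.5 (1.68, SE 0.30, adjusted p = 0.131).

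Sex was the other factor that separated added loci. In females, 13 of 842 loci were called higher (1.54%, where 3.95% of all entries were) and 48 lower (5.70%, where 2.62% were). Among entries with a mean of 10 to 100 normalized reads, 1.72% of added loci were higher and 5.17% lower in females, against 3.16% and 1.94% of long noncoding genes and 11.5% and 2.82% of coding genes. None of the loci had all 12 females above all 12 males (0.171% of all entries), and 5 had them all below (0.594%, against 0.104%). Without the 6 libraries named renal, 14 loci were called, 4 higher (0.482%, against 1.05% of all entries) and 10 lower in females (1.20%, against 0.859%). Of the 61 called loci, 51 had the same direction in all 4 pairs of groups.

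The clearest were XLOC_054074 and XLOC_053384, which had no read in any of the 12 females. In males XLOC_054074 had a lowest, median and highest level of 30.4, 44.7 and 103 normalized reads and a mean of 51.2 ± 21.9 (SD, n = 12), which is at least 17.0-fold higher than 3 reads in each female library. XLOC_053384 had 18.8, 39.1 and 85.4 in males and a mean of 45.3 ± 20.5, at least 15.1-fold higher by the same floor. The adjusted p-values were 2.13e-13 and 2e-11. They were the only 2 added loci with at least 10 reads in every library of 1 sex and at most 1 in every library of the other, and the same rule found 2 annotated entries, also in males. The entries most like XLOC_054074 were Eif2s3y (r = 0.992), a translation initiation factor gene on the Y chromosome, Gm29650 (0.991) and the Y-linked histone demethylase Uty (0.990). For XLOC_053384 they were Kdm5d, another Y-linked demethylase, Eif2s3y and Uty, all at 0.986. A gene present in 1 sex only gives a high r with any other such gene, and where the 2 loci lie was not known.

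The other loci with all females below all males were XLOC_026442, XLOC_009803 and XLOC_001707, the last of which was picked out after its values were seen. XLOC_026442 had 41.7, 84.5 and 251 normalized reads in males and 1.66, 10.98 and 33.5 in females (-2.99, SE 0.35, adjusted p = 9.91e-06). XLOC_026441, the number before it, was more abundant, with 194, 362 and 1164 in males and 4.16, 52.7 and 202 in females (-2.59, SE 0.36, adjusted p = 6.48e-05). The 3 highest females of that locus, at 196, 199 and 202, entered the male range. XLOC_009803 had 25.0, 66.8 and 108 in males and 2.35, 10.9 and 19.2 in females (-2.48, SE 0.22, adjusted p = 4.36e-07), and was among the loci that rose under HF (0.91, SE 0.22, adjusted p = 0.00407).

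The 5 largest increases in females were in loci that were scarce in both sexes. XLOC_046394 had 0, 0 and 4.70 normalized reads in males and 1.29, 21.3 and 58.5 in females (3.49, SE 0.44, adjusted p = 2.09e-05), and was most like Syndig1 (r = 0.954), Ryr3, a calcium release channel (0.953), and Slitrk3 (0.949). XLOC_031808 had 0, 1.01 and 27.0 in males and 3.84, 21.7 and 61.9 in females (2.92, SE 0.44, adjusted p = 0.000133). XLOC_045046 had 0.851, 1.85 and 5.14 in males and 2.58, 26.1 and 60.6 in females (2.79, SE 0.37, adjusted p = 3.96e-05). In all 3 the lowest females reached into the male range.

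XLOC_018954 had 2.25, 11.9 and 18.8 in males and 10.98, 36.0 and 150 in females (2.05, SE 0.39, adjusted p = 0.00119), and XLOC_015944 had 3.47, 10.99 and 34.8 in males and 14.4, 36.6 and 110 in females (1.55, SE 0.26, adjusted p = 0.000432). XLOC_046394 had an r of 0.733 with the mammary epithelium list and XLOC_045046 of 0.783 with that of ovary and uterus. Summed, the mammary markers had a range of 14.1 to 1242 in males and of 195 to 5925 in females. The summed markers of ovary and uterus ranged from 11.9 to 49.3 and from 34.8 to 4224. Their part in these differences was not tested.

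**Figure D5:**
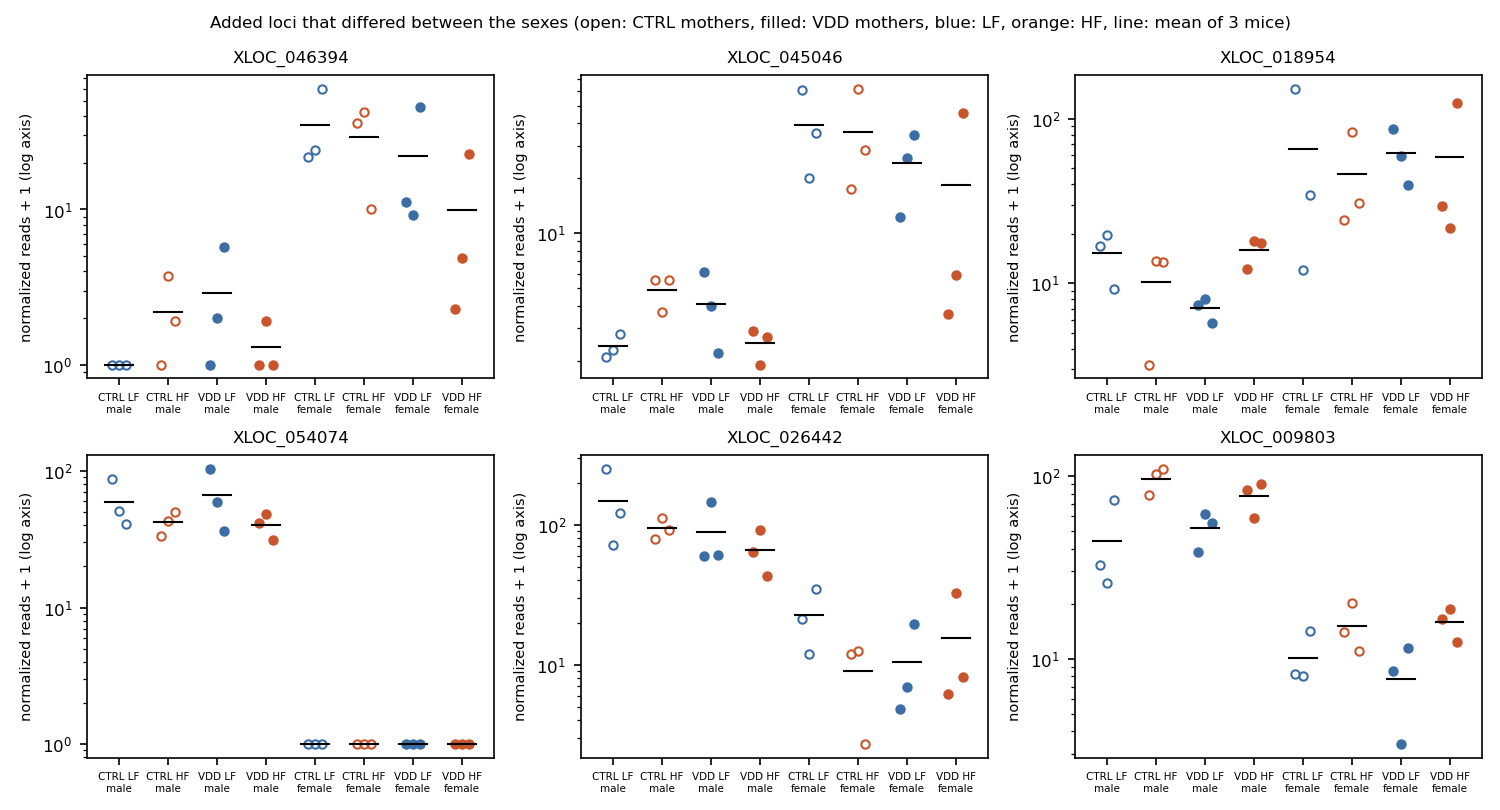
Normalized reads + 1 (y axis, log axis) of 3 loci that were higher and 3 that were lower in females, by group (x axis), with 1 point per mouse and a line at the mean of 3. XLOC_054074 lies at 0 reads in every female, and in all 3 lower panels the females lie below the males.

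No added locus was called for a difference of effects. For the diet effect between the sexes, 0.0183% of all entries were called, and 74 of 842 added loci (8.79%) had an unadjusted p under 0.05, against 9.09% of all entries. For the diet effect between maternal groups, 0% of entries were called, and 23 loci (2.73%) had such a p, against 2.65%. For the maternal effect between the sexes, 0% were called, and 33 loci (3.92%) had such a p, against 6.56%. By limma-voom there were also no calls, and 70, 25 and 32 loci had an unadjusted p under 0.05.

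The smallest p for the diet effect between the sexes belonged to XLOC_023309 and XLOC_052796, neither of which was called. XLOC_023309 had 1.6, 4.0 and 8.4 normalized reads under LF and 19.9, 39.1 and 39.4 under HF in CTRL females, and 5.6, 5.9 and 10.1 under LF and 5.2, 15.5 and 15.7 under HF in VDD females. In males with CTRL mothers it had 8.8, 18.2 and 24.8 under LF and 9, 9 and 10 under HF, which overlapped. In males with VDD mothers it had 10.6, 24.8 and 33.4 under LF and 7.8, 10.2 and 11.3 under HF, which also did. The diet effect in females minus that in males was 2.52 (SE 0.53, adjusted p = 0.133), and only the CTRL females had diet groups that did not overlap. It carries the number before XLOC_023310, which fell under HF. XLOC_052796 had 29.8, 31.7 and 34.7 under LF and 72.2, 80.0 and 86.8 under HF in VDD males, and 50.6, 59.1 and 63.3 under LF and 36.1, 47.5 and 52.1 under HF in VDD females. With CTRL mothers its mean was 55.0 ± 10.1 under LF and 81.4 ± 16.4 under HF in males and 73.6 ± 12.9 and 86.1 ± 11.3 in females (SD, n = 3), so the mean was higher under HF in every pair but the VDD females (difference between the sexes -0.98, SE 0.21, adjusted p = 0.136).

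For the diet effect between maternal groups the smallest p belonged to XLOC_049942 (1.97, SE 0.46, adjusted p = 1.00) and XLOC_005770 (1.25, SE 0.40, adjusted p = 1.00). XLOC_049942 had 65.7, 66.3 and 91.5 normalized reads in CTRL LF males against 19.7, 32.6 and 38.2 in CTRL HF males, and 10.6, 31.8 and 34.7 in VDD LF males against 18.7, 20.6 and 22.6 in VDD HF males. In females it had 16.7, 29.0 and 30.9 under LF and 3.3, 7.7 and 12.4 under HF with CTRL mothers, and 4.7, 4.8 and 12.6 under LF and 14.5, 15.5 and 15.7 under HF with VDD mothers. For the maternal effect between the sexes it belonged to XLOC_010710, given above, and XLOC_013196 (-1.81, SE 0.52, adjusted p = 0.712). XLOC_013196 reached 76.3 in mouse 2310, against at most 37.7 in the other libraries.

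Loci with close numbers tended to share their pattern. The numbers run from 99 to 54427 with gaps, and the tables do not say how they were given. Of the 842 loci, 79 pairs had numbers that differed by 1, with a median r of 0.60 over the 24 libraries, and 26.6% of these pairs had an r above 0.8. For the 42 pairs that differed by 2 the median was 0.54, for 70 pairs that differed by 3 to 5 it was 0.19, and for 295 pairs that differed by 6 to 20 it was 0.07. For the 353575 pairs that were farther apart it was 0.05, and 0.354% had an r above 0.8. The pairs share depth and scaling in every library. Among the pairs whose numbers differed by 1, those above 0.95 were XLOC_023310 with XLOC_023311 and XLOC_035810 with XLOC_035811 (r = 0.959 in both). Whether such pairs are parts of 1 transcript was not tested.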

How the data were processed

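RNA was extracted from retroperitoneal adipose tissue of 24 mice and made into stranded mRNA libraries (Illumina TruSeq). Per the labels and the study's methods, reads were trimmed with Sickle, aligned to mm10 with STAR 2.7.0d (unique positions only), assembled with Cufflinks 2.2.1 and Cuffmerge, and counted with featureCounts 1.6.1. Assembled transcripts of the intergenic class with at least 1 read were added to GENCODE. For each pair of groups compared the authors deposited a table, 8 in all, whose 6 library columns are log2(normalized reads + 1), beside columns of the authors' own DESeq2 comparison (fold changes and p-values), which were not used. Of 56899 entries, 4 with duplicated names were left out. Gene classes came from GENCODE M21, which holds 53824 of the 54425 annotated names; whether the authors counted on that release was not tested.

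Whole reads were obtained again from these values (2 to the power of the value, minus 1, times the library's size factor), and 100% came out whole within 0.02. Each table was fitted with limma 3.58.1 (trend) in R 4.3.3 over entries that reached 10 normalized reads in 3 or more libraries. A further fit of 8 group means used all 24 libraries, scaled by the median of ratios, over entries with a mean of at least 10, with a pseudocount of 1. P-values were adjusted over all tested entries (Benjamini-Hochberg), and differences are on the log2(value + 1) scale, which understates changes of low loci. The fits were tested on simulated data. Alternatives were limma-voom, another pseudocount, filter, scaling or threshold, covariates and left-out libraries. Mice are separate animals, and columns name the group and a mouse number.

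Named loci are the 10 most abundant, those with the largest called changes (up to 5 each way, or the 2 with the smallest p), and those found in 1 sex, with the 3 annotated entries most correlated with the first of them. The loci, lists and rules were chosen with earlier results of these data known. Python 3.11.15 prepared the tables and plots.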

Additional observations from a re-analysis of the deposited data

How the results depend on the processing

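The counts of called loci are the results most open to processing. For HF against LF the 121 loci became 190 with a filter of 10 normalized reads in 3 libraries, 187 without a filter, 38 without the 6 libraries named renal and 191 at an adjusted p under 0.05, and lay between 100 and 157 when 1 library was left out. For females against males the 61 loci became 107, 104, 14 and 113 in the same order, and lay between 44 and 78. The shares of all entries called were 9.75% for diet and 6.57% for sex, and in that order of settings 9.43%, 4.41%, 4.76% and 13.5%, and 7.26%, 3.78%, 1.91% and 10.6%. Every called locus still tested kept its direction in all of these. Fewer libraries were fitted without those named renal, and with that word as a term instead 121 and 47 loci were called. For VDD against CTRL the 1 locus became 0 with limma-voom, a pseudocount of 10, either other filter, the muscle markers as covariate or without the libraries named renal, and 13 at an adjusted p under 0.05. It was also 1 with scaling to total reads, but that was XLOC_030391, lower with VDD mothers (-0.96, SE 0.18). Left-out libraries gave 0 to 6, with 6 only without mouse 2312 (VDD LF female). In settings chosen after seeing the data, it was 4 without the libraries highest in muscle, kidney and Ucp1, 0 with XLOC_028466 as covariate and 2 with the word renal as a term.

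In the tables, with 0 loci called, a pseudocount of 10 gave 1 in CTRL LF vs. CTRL HF males and 5 in VDD LF vs. VDD HF males, no filter gave 1 and 2, and scaling to total reads 1 in the latter. An adjusted p under 0.05 gave 11 and 54 (1.17% and 5.27% of all entries were called), and 73 in CTRL LF vs. CTRL HF females (6.60% of all). One fit over 24 libraries, which shares the spread of all groups, gave 47 in VDD LF vs. VDD HF males (5.58% of tested loci, against 5.03% of all entries), 3 in CTRL LF vs. CTRL HF females (0.356%, against 0.147%) and in the HF females 1 for the maternal diet (0.119%, against 0.0306%). Leaving out 1 library gave 0 to 15 in VDD LF vs. VDD HF males, 15 being without mouse 2310, the one with high muscle markers, 0 to 1 in CTRL HF vs. VDD HF males (1 without mouse 2308), and 0 to 0 elsewhere. The 3 differences of effects gave 0 throughout. The median number of loci expressed per library was 836.5 at 10 normalized reads, 2063 at 1, 1344 at 5 and 176.5 at 50, and the median share of reads was 1.73%, or 0.311% without the 10 most abundant. Of the 1628 loci with a mean under 10 normalized reads, 619 were tested over 24 libraries with the filter of 10 reads in 3 libraries, of which 69 were called for diet and 41 for sex, and fewer reads lie behind these calls.

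No paired analysis was possible because the columns carry mouse numbers and not the replicate numbers of the labels.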

Other observations

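Some added loci moved with markers of tissues and cells that a fat sample can hold. Pearson's r was taken over the 24 libraries between log2 levels and the mean log2 level of each list. It was above 0.8 for 18 of 842 loci with the mesothelium list (213 of 15522 annotated entries). The same held for 7 with skeletal muscle (198), 7 with macrophage (393), 4 with the brown adipocyte (39) and 4 with adrenal (81). It held for 4 with ovary and uterus (158), which were the same 4 loci as with adrenal, and 1 each with adipocyte (37) and mammary epithelium (167). It was above 0.8 for 0 loci with kidney (75), B lymphocyte (26), T lymphocyte (35), blood (8) and epididymis and testis (0). All points share library depth and scaling, and a single high library can set such an r. By list, the highest values were 0.966 for XLOC_023231 with skeletal muscle, 0.954 for XLOC_023526 with macrophage and 0.947 for XLOC_034579 with ovary and uterus. Next came 0.928 for XLOC_049971 with mesothelium, 0.922 for XLOC_044070 with adrenal and 0.910 for XLOC_024277 with mammary epithelium. XLOC_034579, XLOC_034597 and XLOC_042461 had a higher r with ovary and uterus (0.947, 0.934 and 0.944) than with adrenal (0.869, 0.877 and 0.909). XLOC_044070 had a lower one (0.874 against 0.922).

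For 7 of the 842 loci (0.831%) a single library held more normalized reads than all others together, against 226 of 15522 annotated entries (1.46%). In mouse 2292 (CTRL HF female), XLOC_012737 had 628 normalized reads, 97.5% of its total, and at most 8.26 in any other library, and XLOC_013985 had 267 (94.7%) and at most 8.92. XLOC_034579 (175, next 92.9) and XLOC_017434 (137, next 16.5) were also highest in that mouse. The r of XLOC_034579 was 0.947 with markers of ovary and uterus and 0.869 with those of the adrenal gland, and both lists were highest in that mouse. In mouse 2310 (VDD LF male), XLOC_037018 had 1892 normalized reads (next 225), XLOC_003797 392 (next 86.0) and XLOC_040289 162 (next 51.6), and the r of the last 2 with skeletal muscle markers was 0.886 and 0.957. Mouse 2303, which stood out in this way for 99 annotated entries, did so for 0 added loci.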
